A study of Mus musculus with 6 samples.

Results

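Mitochondrially encoded RNAs are the transcripts of the small circular genome inside mitochondria, which carries genes for 13 respiratory chain proteins, 2 ribosomal RNAs and 22 transfer RNAs in the RefSeq annotation of the mouse. They were taken here as the array probes whose annotation names a symbol that starts with mt-, alone or with other symbols. There were 3 such probes of 72688 on the array, which named mt-Rnr1, the RNA of the small mitochondrial ribosomal subunit, mt-Tk, the mitochondrial transfer RNA for lysine, and, together on 1 probe, mt-Rnr2, the RNA of the large mitochondrial ribosomal subunit, and ND1, a subunit of respiratory complex I. The annotation gives the other mitochondrial protein genes without the prefix, so a further 8 probes of genes that RefSeq places on the mitochondrial chromosome are described beside these 3. The 11 probes together name all 13 mitochondrial protein genes, both ribosomal RNAs and 1 transfer RNA. Another 19 probes carry an identifier of the same chromosome and no symbol, and they are given as a group only.

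RNA was hybridised to 6 Clariom D Mouse arrays, 3 of platelets from blood and 3 of bone marrow cells labelled megakaryocyte progenitors. In each cell type the arrays held RNA of mice given CTC41.5G-EVs, CTC41-EVs or PBS, with 1 array per group and the RNA of a group's mice pooled. EVs commonly stands for extracellular vesicles, which are membrane particles released by cells. The sources used here explain neither line name, and they give no strain, age, sex, dose or time of treatment. They also do not say which pools were first cleared of leukocytes and erythrocytes with magnetic beads.

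Mitochondrial DNA is read from both strands as long precursors, which are cut largely at the transfer RNAs that lie between the ribosomal RNA and protein genes. The messages are translated inside the organelle, and their products join subunits encoded in the nucleus in complexes I, III, IV and V. Platelets have no nucleus and inherit nuclear transcripts from the megakaryocyte, but they keep mitochondria with their own genome. No mitochondrial sequence is shown, since the reference tables used here hold none.

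The labels of the cells were checked against marker genes. All 10 platelet markers were higher on the platelet arrays, with a summed linear signal of 17273 to 24718 against 505 to 573 on the progenitor arrays. Of 6 tested erythroid markers 5 were higher in platelets, with a summed signal over 8 genes of 2066 to 2244 in platelets and 240 to 258 in progenitors, and 2 of the 8 lay below the median of all probes in each cell type. All 10 markers of neutrophils and their precursors were lower in platelets, with sums of 388 to 446 in platelets and 1764 to 2008 in progenitors. Of 8 tested megakaryocyte progenitor and stem cell markers 3 were higher and 2 lower in platelets, among them the receptor kinase Kit (-1.39, SE 0.10) and the megakaryocyte integrin Itga2b (3.03, SE 0.16; 6.51 on average in progenitors). Summed over these 8 genes, the signal was 2406 to 3348 in platelets and 390 to 454 in progenitors. On the progenitor arrays this sum was under that of the 10 neutrophil markers. Of 6 tested markers each, 3 of B cells were lower (1 after quantile normalization), 0 of T and NK cells were called and 2 of monocytes were higher. The part of other blood cells in the results below was not tested, and in pooled RNA fewer cells of a type and less RNA per cell cannot be told apart. The platelet PBS array stood apart at the top of its signal range, as described with the EV comparisons.

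The first comparison asked how the mitochondrial RNAs differed between platelets and progenitors over the 3 treatments. The mitochondrial messages had higher signals in platelet RNA, from 2.13-fold for COX1 to 20.7-fold for ND3. The signal of the probe for the lysine transfer RNA mt-Tk was at least 68.6-fold higher. That of the small ribosomal RNA was of similar height in both cell types as deposited. Whether the mt-Tk signal came from the cut transfer RNA or from uncut precursors was not tested. Of the 3 probes with an mt- symbol, 2 were called higher in platelets and 0 lower. The call for mt-Tk adds nothing, since its mean reached the level needed for testing only through its platelet arrays. limma called 12.8% of all 36344 tested probes higher and 35.1% lower, 47.9% in all. Calls needed a difference of 1.5-fold or more and a p of 0.05 or less after Benjamini-Hochberg adjustment over those probes. All values are log2 signals, and the SD is over the 3 arrays of a cell type, which differ in treatment.

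The small ribosomal RNA was among the brightest probes of every array. On the CTC41.5G-EVs, CTC41-EVs and PBS arrays mt-Rnr1 stood at 13.35, 13.69 and 12.77 in platelets, against 12.77, 13.07 and 13.14 in progenitors. The cell types overlapped, with the platelet PBS array below 2 of the progenitor arrays. The means were 13.27 ± 0.46 in platelets and 12.99 ± 0.20 in progenitors (SD, n = 3 each), a difference of 0.28 with SE 0.23 (limma adjusted p = 0.314), and its 95% interval ran from -0.29 to 0.85. By place among the 72688 probes of each array, mt-Rnr1 was the 8th, 7th and 6th brightest on the platelet arrays and the 71st, 65th and 61st on the progenitor arrays. After quantile normalization, which gives every array the same distribution, its means were 13.58 in platelets and 12.67 in progenitors, and it was called higher by 0.91 (SE 0.08, adjusted p = 0.000674), where 17.1% of probes were called higher. The call for mt-Rnr1 therefore rests on how the arrays are scaled. Without the PBS array of either cell type the difference as deposited was 0.60 and was called (adjusted p = 0.0309 without the platelet array and 0.0339 without the progenitor array). With either array left out the model compares the cell types on the 4 EV arrays alone.

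The probe shared by the large ribosomal RNA and ND1 was higher in platelets under every scaling tried. It stood at 12.52, 12.74 and 12.13 on the CTC41.5G-EVs, CTC41-EVs and PBS arrays of platelets, against 11.41, 11.38 and 11.27 on those of progenitors. No platelet array overlapped a progenitor array, as for 75.9% of all tested probes. The difference was 1.11 (SE 0.16, 2.16-fold, adjusted p = 0.00232), and 1.76 (SE 0.15) after quantile normalization. Its place was 63rd, 46th and 76th on the platelet arrays and 294th, 295th and 297th on the progenitor arrays. The signal of mt-Rnr2 and that of the ND1 message cannot be told apart on this probe.

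The probe of the lysine transfer RNA had the widest gap of the 11 named mitochondrial probes. mt-Tk stood at 10.40, 9.82 and 10.76 on the CTC41.5G-EVs, CTC41-EVs and PBS arrays of platelets, against 3.61, 3.64 and 3.49 on those of progenitors. Its lowest platelet value lay 6.19 above its highest progenitor value. On the progenitor arrays it was under the median of all probes, at the 53194th, 51302nd and 54263rd place, so the size of the difference of 6.75 (SE 0.23, adjusted p = 8.57e-05) depends on background. Measured from the median of all probes, 4.23, its platelet mean was higher by at least 6.10, or at least 68.6-fold. Since mt-Tk passed the floor on mean signal through its platelet arrays, its call adds nothing to that height. After quantile normalization the difference was 7.21 (SE 0.23).

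**Figure D1:**
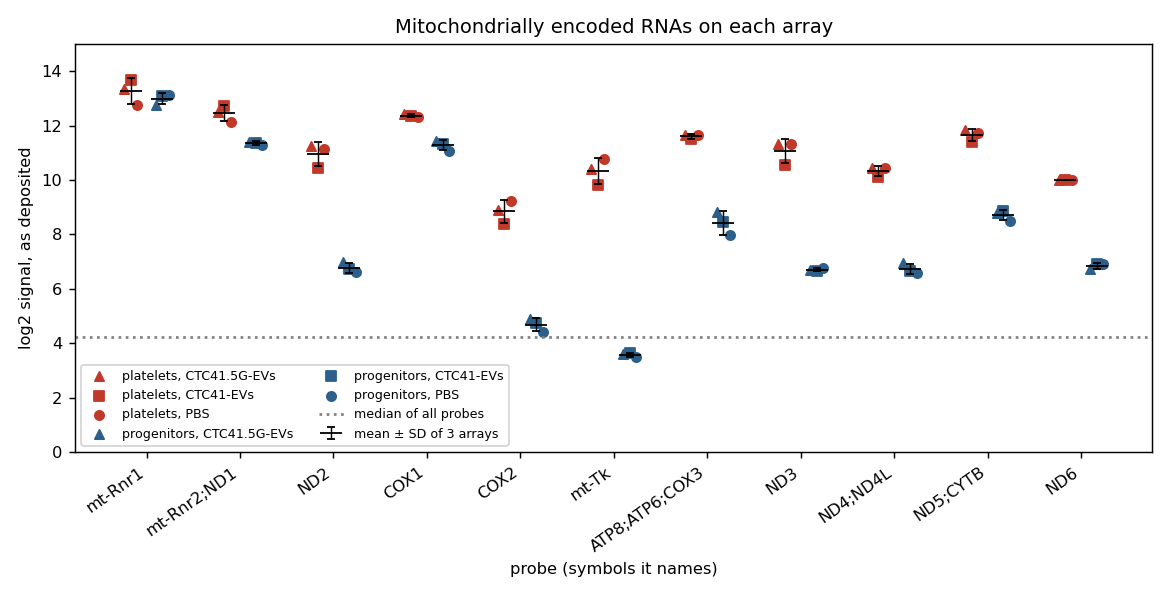
Log2 signal as deposited (y axis) of the 11 named mitochondrial probes, in the order of their genes along the mitochondrial genome, on each platelet array (red, left) and each progenitor array (blue, right). Symbols mark the treatment and black bars the mean ± SD of 3 arrays. The cell types overlap for mt-Rnr1 alone, and the progenitor values of mt-Tk lie below the median of all probes (dotted).

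Signal change was unequal between probes of the same genome. An equal shift of a whole array cannot alter the difference between 2 of its probes. By that measure the mt-Rnr2 and ND1 probe rose by 0.83 more than mt-Rnr1 in platelets. The named probes brightest in progenitors, mt-Rnr1, the mt-Rnr2 and ND1 probe and COX1, had the smallest differences (0.28, 1.11 and 1.09). mt-Rnr1 lay near the top of the signal range, which ended at 14.06, and whether signals are compressed there was not tested. With its progenitor values raised to the median of all probes, mt-Tk rose by at least 5.82 more than mt-Rnr1. mt-Tk lies between COX2 and ATP8 on the mitochondrial chromosome. With mt-Tk raised to the same floor and COX2 as measured, mt-Tk rose by 1.94 more than COX2, a subunit of cytochrome c oxidase. COX2 was itself near that floor in progenitors, at 4.41 to 4.89, so this excess is no lower bound. Over the 3 platelet arrays the gap between mt-Tk and COX2 had an SD of 0.05, against an SD of 0.47 for mt-Tk itself.

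All 8 other named mitochondrial probes were called higher in platelets, where 12.8% of all tested probes were. For none of the 8 did the cell types overlap, as for 75.9% of all tested probes. The differences of the 8 ran from 1.09 to 4.37 with a median of 3.39, where the median over all probes tested was -0.38. COX1, the catalytic core of cytochrome c oxidase, had the smallest, at 12.43, 12.35 and 12.31 on the CTC41.5G-EVs, CTC41-EVs and PBS arrays of platelets and 11.43, 11.31 and 11.07 on those of progenitors (1.09, SE 0.14, adjusted p = 0.0017). COX2 averaged 8.84 ± 0.42 in platelets and 4.68 ± 0.24 in progenitors (SD, n = 3 each; 4.16, SE 0.25). The probe of COX3 and the ATP synthase subunits ATP6 and ATP8 averaged 11.60 ± 0.08 in platelets and 8.42 ± 0.44 in progenitors (3.18, SE 0.22). COX1 differed by less than COX2, with intervals of 0.73 to 1.45 for COX1 and 3.54 to 4.78 for COX2 at 95%.

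Among the mitochondrially encoded complex I subunits, ND3 differed most, at 11.34, 10.57 and 11.33 on the CTC41.5G-EVs, CTC41-EVs and PBS arrays of platelets and 6.69, 6.65 and 6.77 on those of progenitors (4.37, SE 0.21). ND2 rose by 4.18 (SE 0.21) and the ND4 and ND4L probe by 3.60 (SE 0.17). The probe of ND5 and the complex III subunit CYTB averaged 11.66 ± 0.23 in platelets and 8.71 ± 0.18 in progenitors (2.95, SE 0.19). ND6, the protein gene read from the opposite strand, stood at 9.99, 10.01 and 10.01 on the CTC41.5G-EVs, CTC41-EVs and PBS arrays of platelets and 6.72, 6.90 and 6.90 on those of progenitors (3.16, SE 0.16). Adjusted p for the 8 probes lay between 0.00012 and 0.0017. After quantile normalization their differences ran from 1.80 to 4.73.

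**Figure D2:**
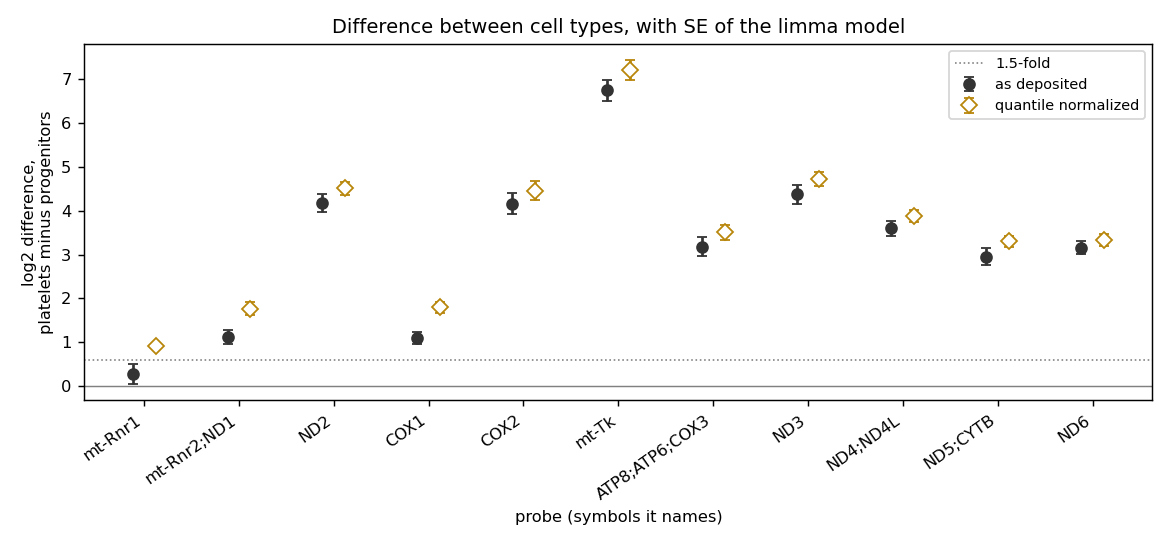
Log2 difference, platelets minus progenitors (y axis), of the 11 named mitochondrial probes as deposited (filled) and after quantile normalization (open), with the SE of the limma model. mt-Rnr1 crosses the dotted 1.5-fold line after quantile normalization only, from 0.28 to 0.91, and the other probes lie above it under both.

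Of the 19 probes of the mitochondrial chromosome without a symbol, 15 had a progenitor mean above the median of all probes, and all 15 were called higher in platelets, by 1.69 to 6.77. The other 4 passed the floor on mean signal only through their platelet arrays, so their calls add nothing, and measured from that floor each was higher by at least 2.66. The annotation used here does not say which strand or gene these probes read. Of the 25 mitochondrial probes measured above that level in progenitors, 24 were called higher as deposited, and the exception was mt-Rnr1. Among all tested probes, 12.8% were called higher. Those probes were chosen by their mean over both cell types, and the share among probes above that level in progenitors was not computed.

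**Figure D3:**
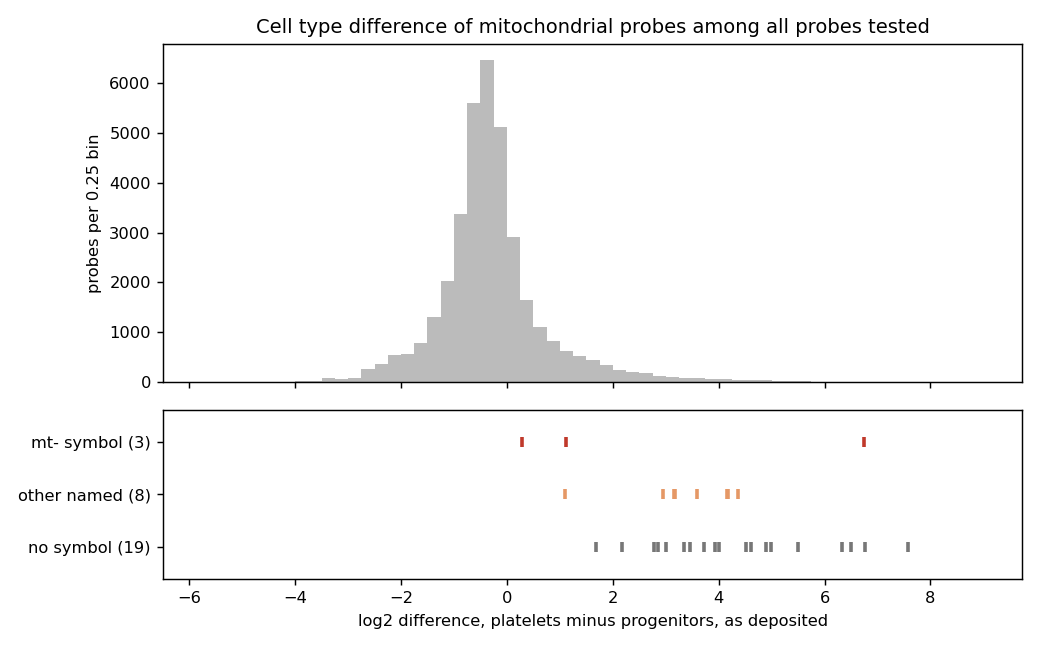
The upper panel counts all 36344 tested probes by their log2 difference, platelets minus progenitors, as deposited. The lower panel marks the 3 probes with an mt- symbol, the 8 other named mitochondrial probes and the 19 without a symbol, all of which lie above 0.

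By the rule of likeness, the probes whose 6 array values, each centred on its own mean, lay nearest to mt-Tk were those of the podoplanin receptor Clec1b (root mean square distance 0.22), the ADP receptor P2ry12 (0.24), the signalling regulator Rgs18 (0.25), the adhesion receptor Cd226 (0.31) and Ctla2b (0.42), all platelet-high genes, with Pearson's r of 0.994 to 0.998 over the 6 arrays. Nearest to the mt-Rnr2 and ND1 probe were the autophagy gene Atg12, Gm20594, Cd55b, the polyamine enzyme gene Sat1 and the interferon-induced gene Ifit1, at distances of 0.10 to 0.12 and r of 0.980 to 0.991. Nearest to mt-Rnr1 were the chemokine receptor gene Cxcr2, Dlx6, the small nucleolar RNA Snord55 and 2 unnamed Riken transcripts, at distances of 0.13 to 0.16 and r of 0.919 to 0.941. These correlations describe 6 arrays that share 2 cell types, and for mt-Tk the gap between cell types sets most of r.

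Many nuclear genes of the same complexes were also higher in platelets. Among genes with a probe of their own, 16.1% were called higher and 25.7% lower. Of 91 tested nuclear genes of oxidative phosphorylation, drawn by a symbol pattern, 51 were called higher and 2 lower, with a median difference of 0.69, against a median of 3.18 over the 11 mitochondrial probes. By complex, 22 of 40 genes rose for complex I, 1 of 4 for complex II, which has no mitochondrially encoded subunit, 6 of 11 for complex III and cytochrome c, 10 of 17 for complex IV and 12 of 19 for complex V. The complex I pattern took in 4 assembly factors. It also took in Ndufa4, now counted as a complex IV subunit, and its paralog Ndufa4l2. The patterns of complexes III and V took in 3 symbols marked as pseudogenes. The largest rises were those of Cox5a (5.23, SE 0.19), Ndufa1 (4.90, SE 0.17), Ndufa4 (4.01, SE 0.18) and Ndufs4 (3.55, SE 0.16). The 2 that fell were the paralogs Ndufa4l2 and Cox8c, and neither fall was called after quantile normalization.

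Most genes that make, process and translate mitochondrial RNA were not called in either direction. Of 9 tested genes of mitochondrial transcription and genome maintenance, 0 were called higher and 1 lower, the mitochondrial RNA polymerase gene Polrmt, at 5.00 in platelets and 5.62 in progenitors (-0.62, SE 0.10, adjusted p = 0.00303). Of 9 genes of RNA processing and decay, 2 rose, the oligoribonuclease gene Rexo2 (1.50, SE 0.14) and the RNA stability gene Slirp (4.74 in platelets and 3.73 in progenitors), and 1 fell, Prorp, the nuclease that cuts the 5′ ends of mitochondrial transfer RNAs (-0.66, SE 0.11). Of 11 genes of transfer RNA modification, 0 rose and the pseudouridine synthase gene Pus1 fell (-0.61, SE 0.10). Of 15 genes of aminoacyl-tRNA synthesis, 0 rose and 3 fell, Pars2, Gatb and Vars2 (-0.67, -0.67 and -0.62). Of 15 genes of ribosomal RNA modification and ribosome assembly, 2 rose and 3 fell, and Tfb1m, a methyltransferase of the small ribosomal RNA, rose by 0.98 (SE 0.11). The 3 that fell were Mrm1 (-0.74), the large-subunit methyltransferase gene Mrm2 (-0.71) and Trub2 (-0.70). Slirp and Tfb1m (3.84) had progenitor means under the median of all probes, 4.23, and Prorp (4.14) and Gatb (4.05) had platelet means under it. These genes passed the floor through 1 cell type only, so their calls add nothing and the sizes depend on background.

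Of 66 mitochondrial ribosomal protein genes, 5 rose and 1 fell, with a median of -0.02, and the named rises were Mrps18c (1.37, SE 0.17), Mrpl48 (0.79, SE 0.10) and the pseudogenes Mrpl48-ps and Mrps36-ps1 (1.25 and 0.66). Of 7 translation factor genes, 0 rose and Taco1, an activator of COX1 translation, fell (-0.68, SE 0.14). Of 14 genes of mitochondrial mass and biogenesis, 3 rose, led by the outer membrane channel gene Vdac3 (4.16, SE 0.18), and the protease subunit gene Clpp fell (-0.77, SE 0.10). Of 8 genes of mitochondrial clearance, 4 rose, led by the mitophagy receptor gene Bnip3l (3.80, SE 0.17), which is also known for clearing mitochondria from maturing red cells, and 0 fell. Over the 244 genes of these 10 lists, 67 rose and 14 fell as deposited, and 92 rose and 1 fell after quantile normalization, Mrm2 (-0.62). Of all genes with a probe of their own, 21.8% were called higher and 12% lower under that scaling. The falls named above are thus lost under that scaling, except that of Mrm2. Vdac3 (4.14) and the clearance gene Fundc1 (3.96) had progenitor means under the median of all probes. Their calls thus add nothing, and the sizes depend on background.

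The next comparison asked whether EVs shifted these RNAs on average over both cell types. limma called 0 of the 3 mt- probes for CTC41.5G-EVs against PBS, CTC41-EVs against PBS or CTC41.5G-EVs against CTC41-EVs, with 0 at an unadjusted p under 0.05, where 0% of all probes were called in each and 2282, 1128 and 2041 probes lay under that unadjusted p. For CTC41-EVs against PBS the averaged differences were 0.43 (SE 0.28) for mt-Rnr1, 0.36 (SE 0.20) for the mt-Rnr2 and ND1 probe and -0.40 (SE 0.28) for mt-Tk, with an adjusted p of 0.9999 for each. For CTC41.5G-EVs against PBS they were 0.11, 0.27 and -0.12, with the same errors and adjusted p between 0.86 and 0.965. The number of arrays limits this test.

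Comparisons of EVs inside a cell type set 1 array beside another, so they carry sizes and no test, and they share arrays. In platelets, ribosomal RNA probes were higher and mt-Tk was lower on both EV arrays than on the PBS array. Against PBS, mt-Rnr1 differed by 0.58 on the CTC41.5G-EVs array and by 0.92 on the CTC41-EVs array, the mt-Rnr2 and ND1 probe by 0.39 and 0.61, and mt-Tk by -0.37 and -0.94. All 3 probes passed 1.5-fold for CTC41-EVs, where 6.92% of probes above the signal floor did so, and 0 of 3 did so for CTC41.5G-EVs, where 4.72% did. mt-Rnr1 and mt-Tk were known from earlier results of these data to stand out in the CTC41-EVs comparison, so this count is a description only.

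The platelet signal of mt-Rnr1 was higher with EVs, as were those of the other probes at the very top of the range. Of the 20 brightest platelet probes, mt-Rnr1 among them, all 20 were higher than on the PBS array with CTC41.5G-EVs and all 20 with CTC41-EVs, with medians of 0.56 and 0.59. For the 10 probes with a mean of 13 or more the medians were 0.95 and 1.10. Of the 100 brightest, 97 were higher with CTC41.5G-EVs and 73 with CTC41-EVs, with medians of 0.37 and 0.15. On the progenitor arrays the medians of the 20 brightest were 0.01 and 0.03. After quantile normalization mt-Rnr1 differed from PBS by -0.10 with CTC41.5G-EVs and by -0.07 with CTC41-EVs, so its direction in platelets changed with the scaling. The mt-Rnr2 and ND1 probe kept its sign, with 0.32 and 0.69. The 81 platelet probes between 12 and 13 had median differences of 0.37 with CTC41.5G-EVs and 0.14 with CTC41-EVs.

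The lower signal of mt-Tk did not go away under quantile normalization, at -0.58 with CTC41.5G-EVs and -0.93 with CTC41-EVs. Among the 256 platelet probes with means between 10 and 11 the median differences were 0.11 and -0.13, and 1 in 10 of those probes lay below -0.09 with CTC41.5G-EVs and below -0.52 with CTC41-EVs. Relative to its neighbour COX2, mt-Tk differed by -0.09 between the CTC41-EVs and PBS arrays of platelets as deposited and by -0.28 after quantile normalization.

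**Figure D4:**
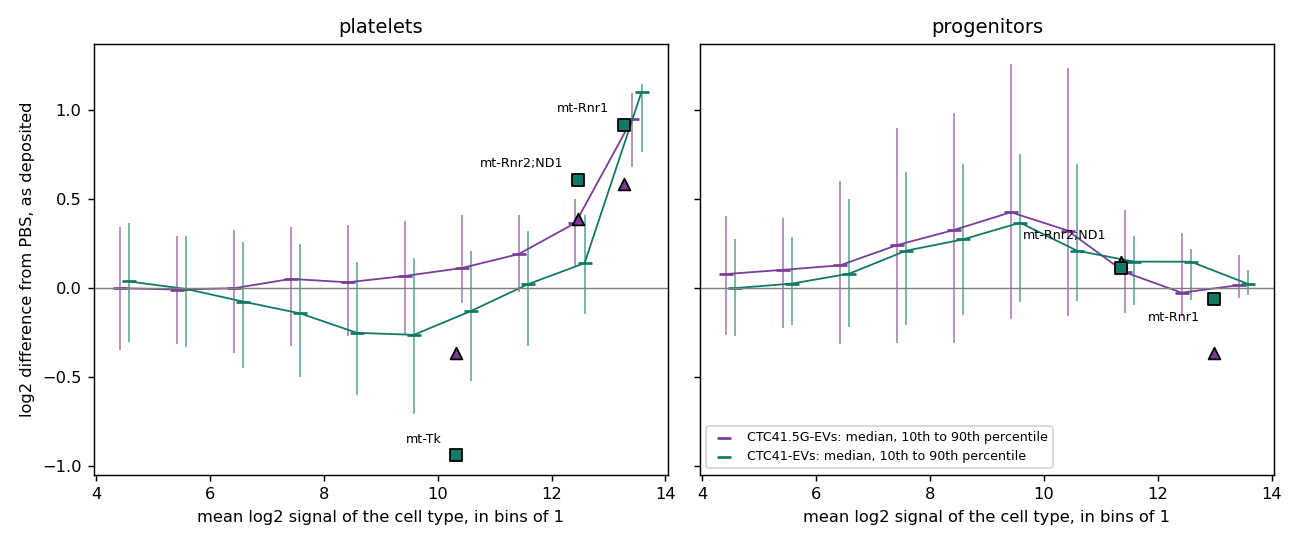
Log2 difference from the PBS array (y axis) by mean log2 signal of the cell type (x axis, bins of 1; the last bin takes all above). Lines join bin medians, bars run from the 10th to the 90th percentile, and outlined symbols are mt-Rnr1, the mt-Rnr2 and ND1 probe and, in platelets, mt-Tk. The last platelet bin holds 10 probes, with medians of 0.95 and 1.10.

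Mitochondrial messages in platelets mostly went the way of mt-Tk with CTC41-EVs and less clearly with CTC41.5G-EVs. Of the 8 other named probes 7 were lower with CTC41-EVs than with PBS, with a median of -0.33, while the median over platelet probes above the floor was -0.05. COX2 stood at 8.40 with CTC41-EVs and 9.24 with PBS (-0.84), ND3 at 10.57 and 11.33 (-0.76) and ND2 at 10.46 and 11.16 (-0.70), the 3 that passed 1.5-fold. The ND4 and ND4L probe differed by -0.34, the ND5 and CYTB probe by -0.31 and the ATP8, ATP6 and COX3 probe by -0.15, whereas ND6 differed by -0.001 and COX1 by 0.04. After quantile normalization 7 of 8 were again lower, 2 of them past 1.5-fold, and ND6 was higher by 0.31. With CTC41.5G-EVs 4 of the 8 were lower than with PBS and 4 higher as deposited, and 8 of 8 lower after quantile normalization, in neither case by 1.5-fold.

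Between the EV types in platelets, mt-Rnr1 differed by -0.33 and the mt-Rnr2 and ND1 probe by -0.22, CTC41.5G-EVs minus CTC41-EVs, while mt-Tk was higher by 0.57. None of the 3 passed 1.5-fold, where 8.69% of probes did. Of the 8 other named probes 7 were higher with CTC41.5G-EVs, and ND2 and ND3 passed 1.5-fold (0.79 and 0.77). After quantile normalization the 3 differences were -0.04, -0.37 and 0.35.

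In progenitors 0 of the 9 differences of the 3 probes passed 1.5-fold. Against PBS, mt-Rnr1 differed by -0.37 with CTC41.5G-EVs and -0.06 with CTC41-EVs, the mt-Rnr2 and ND1 probe by 0.14 and 0.11, and mt-Tk by 0.12 and 0.15, the last at background level. Of all probes above the floor 10.7% and 5.86% passed 1.5-fold, and 4.37% between the EV types. The ATP8, ATP6 and COX3 probe stood at 8.84 with CTC41.5G-EVs, 8.46 with CTC41-EVs and 7.96 with PBS, and its difference of 0.87 with CTC41.5G-EVs was the 1 value past 1.5-fold among the 8 other named probes. It was 0.51 after quantile normalization, under that fold. Of the 8, 6 were higher than PBS with each EV type as deposited, and 5 with CTC41.5G-EVs and 4 with CTC41-EVs after quantile normalization. Whether an EV difference itself differs between platelets and progenitors could not be tested, since that model leaves no degrees of freedom.

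**Figure D5:**
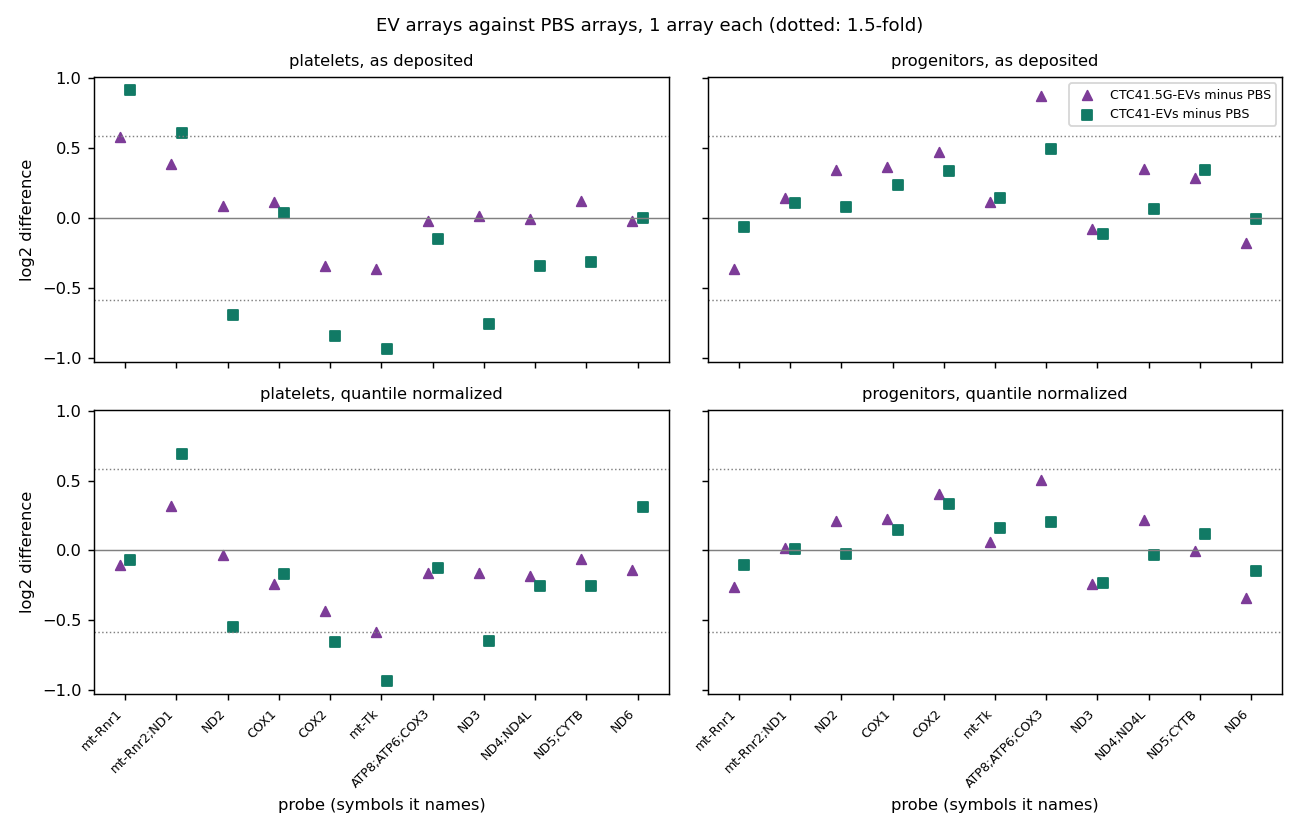
Log2 difference of each EV array from the PBS array of its cell type (y axis), for the 11 named mitochondrial probes, in platelets (left) and progenitors (right), as deposited (top) and after quantile normalization (bottom); dotted lines mark 1.5-fold. In platelets mt-Rnr1 moves from 0.92 to -0.07 with CTC41-EVs between the scalings, while mt-Tk stays at -0.94 and -0.93.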

How the data were processed

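The authors deposited 1 table of log2 signals for 72688 probes, with values between 0.23 and 14.06. The submitters' processing notes name Expression Console 1.4.1.46, and the series text gives MAS5.0. How arrays were scaled to each other and the genome build are not stated there, so no coordinates are printed. Array medians ran from 4.00 to 4.05 in platelets and from 4.38 to 4.45 in progenitors. Probes were named from GEO's platform annotation, where 30604 named 1 symbol, 2146 several and 39938 none. Mitochondrial genes were found through RefSeq (GRCm38.p6).

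Values were used as deposited. limma 3.58.1 in R 4.3.3 fitted cell type and treatment as additive terms (2 residual degrees of freedom, intensity trend) to the 36344 probes whose mean reached the 50th percentile, 4.23. All 3 members passed. EV differences within a cell type were set against probes with a mean of at least 5.07, the 75th percentile. The code was tested on simulated data in which no other probes were changed. There 10% of 100 probes raised by 1 in platelets were called, and 61% of 100 raised by 2, with 1 false call. In the data 47.9% of tested probes were called, which makes the adjusted cut-off less strict than in the simulation. The simulated shares thus do not give the share of true differences called in the data. A gene that was not called may still differ. Every probe with an mt- symbol is named, and of each list the 4 called genes with the largest differences. Members and lists were chosen with earlier results of these data known. Nothing says that arrays came from separate experiments. With 1 array per group, the error behind each p-value is how unequal the treatment differences were in the 2 cell types. limma moderated that error over all tested probes. It holds no spread between replicates, and a true EV difference between cell types enters it as error. Arrays carry no read depth, and their number limits the precision.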

Additional observations from a re-analysis of the deposited data

How the results depend on the processing

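Cell type differences of the 11 named probes were recomputed under 12 alternatives, 3 scalings, no floor, probes with 1 symbol, no treatment term and each of 6 arrays left out. All were positive, and all but that of mt-Rnr1 were called wherever the probe was tested. In this balanced design, dropping the floor, the shared probes or the treatment term cannot change a difference, only its call. Leaving out either array of a treatment gives the same difference, so each such pair is 1 result. mt-Rnr1 ran from 0.11 to 0.99 and was called under 4, quantile normalization (0.91), arrays centred on olfactory receptor probes (0.99), an alternative chosen after seeing the data, and without either PBS array (0.60). mt-Tk, at background in progenitors, ran from 6.49 to 7.46 and the mt-Rnr2 and ND1 probe from 0.98 to 1.82. Between 2 and 3 mt- probes, and 10 to 11 of the named probes, were called when an array was left out. With probes of 1 symbol alone these counts were 1 and 6, because shared probes leave the test. The median of all probes was -0.38 as deposited, -0.06 after quantile normalization, 0.00 with arrays shifted to the same median and 0.34 with olfactory centring. The 67 nuclear genes called higher became 104 with equal medians and 157 with olfactory centring, and the 14 called lower became 1 with quantile normalization and 0 with the other scalings. Leaving out an array gave 56 to 71 higher and 11 to 20 lower. EV effects averaged over cell types called 0 mt- probes under every alternative run. Of the 3 single-array differences past 1.5-fold, 2 passed after quantile normalization, where mt-Rnr1 with CTC41-EVs in platelets reversed to -0.065, and 0 passed 2-fold. The treatment term pairs the platelet and progenitor arrays by treatment, and without it the counts were 2 mt- probes, 10 named probes, 67 nuclear genes higher and 14 lower, equal to those with it. A block by replicate number could not be fitted, since each group has 1 array.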

Other observations

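The 19 mitochondrial probes without a symbol were followed on the EV arrays as well. In platelets 12 of the 19 were lower than with PBS for CTC41.5G-EVs (median -0.10) and 13 for CTC41-EVs (median -0.06). Past 1.5-fold were 1 higher and 1 lower with CTC41.5G-EVs, and 1 higher and 2 lower with CTC41-EVs. In progenitors 12 and 11 were lower, with medians of -0.05 and -0.03. Past 1.5-fold in progenitors were 2 higher and 3 lower with CTC41.5G-EVs and 0 with CTC41-EVs.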
